A study of Mus musculus with 6 samples.

Results

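The genes described here encode the machinery with which a macrophage shows peptides to CD4 T cells and the surface proteins that accompany that signal. The 10 genes were listed by name: H2-Aa, H2-Ab1, H2-Eb1, H2-DMa, H2-DMb1, Cd74 and Ciita for MHC class II presentation, and Cd80, Cd86 and Cd40 for costimulation. Each gene was read from the probe set annotated to that symbol alone, and 9 of the 10 had one, out of 22180 genes in all. Cd74, the invariant chain that holds class II molecules until they reach the endosome, has no value here, because its probe set also carries the symbol Mir5107. No filter on low signal was set, so none of the 9 was left out.

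The study asked how an antibody against CSF1R, the receptor for the macrophage growth factor M-CSF, alters macrophages kept with myeloma cells. Marrow-derived monocytes of 3 C57BL/KaLwRij mice were grown for 7 days with M-CSF, and the resulting macrophages spent a night with 5TGM1-luc cells, a mouse myeloma line that carries luciferase. One group of 3 cultures then received 0.5 nM antibody to mouse CSF1R for 3 days and the other group of 3 received control IgG for the same time. No separate IgG dose is stated. All 6 cultures thus had M-CSF during growth and contact with myeloma cells. They were washed 4 times to remove myeloma cells, and no sort is described. Total RNA of each was read on 1 whole-transcript mouse array. Nothing in the labels ties a replicate number to a mouse, so p-values reflect variation among these samples only, possibly technical, and 3 arrays a group limit the precision.

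Class II molecules are pairs of an alpha and a beta chain that take up peptides cut in the endosome. In the mouse, H2-Aa and H2-Ab1 form the A molecule, H2-Eb1 is the beta chain of the E molecule, and H2-DM exchanges the invariant chain's fragment for peptide. CIITA is the coactivator that switches these genes on, and in macrophages it is induced by interferon gamma. CD80 and CD86 bind CD28 on the T cell, and CD40 is triggered by CD40 ligand.

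CIITA does not bind DNA itself but is held at class II promoters by factors on an X box (RFX) and a Y box (NF-Y). A promoter table from RefSeq (GRCm38.p6) held 5 of the 10 genes with 6 start sites. The 130 bases before the start are shown for H2-Aa (chr17:34287824-34287953, minus strand), H2-Eb1 (chr17:34305737-34305866, plus strand) and H2-DMb1 (chr17:34153061-34153190, plus strand). These 3 carry the X box start and the Y box, both defined next, in the same order, and their transcripts are described below. Capitals mark CCAAT (the Y box, which reads ATTGG on the strand shown when it lies on the other), ACNGATG (part of the X box) and TNGNAACT (the start of the X box, chosen after these sequences were read). The last 2 overlap in H2-Eb1 and H2-DMb1, while H2-Aa has no ACNGATG in the bases shown.
H2-Aa: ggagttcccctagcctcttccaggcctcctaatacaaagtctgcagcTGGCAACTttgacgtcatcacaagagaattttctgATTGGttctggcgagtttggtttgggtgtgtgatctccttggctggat
H2-Eb1: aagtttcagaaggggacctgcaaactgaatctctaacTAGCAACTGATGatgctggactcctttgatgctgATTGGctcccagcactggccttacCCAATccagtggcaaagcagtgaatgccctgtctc
H2-DMb1: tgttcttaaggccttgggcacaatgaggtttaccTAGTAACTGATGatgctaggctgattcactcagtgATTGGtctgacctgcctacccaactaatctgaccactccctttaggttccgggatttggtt

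Between the start of the X box and the Y box lay 27 bases in H2-Aa, 26 in H2-Eb1 and 27 in H2-DMb1. Searched on both strands in the 250 bases before a start, CCAAT was found in 33.8% of all 32851 promoters in the table, ACNGATG in 8.31% and TNGNAACT in 10.6%. TNGNAACT followed within 40 bases by a reverse CCAAT was found in 66 promoters, or 0.201%, and these include the 3 shown. Since TNGNAACT was chosen after these sequences were read, the low share partly follows from that choice. The start site of Cd80 and the first of the pair listed for H2-DMa held none of these, and the second site of H2-DMa held a CCAAT alone. The STAT motif TTCNNNGAA, present in 7.02% of promoters, had no match in the 6 windows. Such matches are a description of letters, and their use in these cells was not measured.

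Class II and costimulation transcripts were higher after the CSF1R antibody. Of the 9 measured genes, 8 were called higher at a limma adjusted p under 0.05, against 12.5% of all genes called higher and 28.5% called in either direction. None was lower, and at an unadjusted p under 0.05 the count of lower genes was also 0. The 9 log2 differences had a median of 1.21, from 0.18 to 1.93, where the median of all genes was −0.02. A rise of at least 2-fold was seen in 5 of the 9 and in 2.89% of all genes. The 3 antibody arrays lay wholly above the 3 IgG arrays for all 9, though by only 0.05 for H2-DMb1. Such a separation held for 16.6% of all genes. The call of each of the 8 was kept under all 17 alternative settings, which included cyclic loess scaling and the loss of any 1 array. Of all called genes, 43.8% were higher as deposited and 59.2% after cyclic loess. As a guide to background, 95% of 1390 odorant and pheromone receptor genes had a mean below 4.92, and 8 of the 9 genes exceeded it in at least 1 group. H2-DMb1 did not. Of the 13110 genes that exceeded it, 3244 had the antibody arrays wholly above the IgG arrays. In RNA of a whole culture, more cells of a type and more RNA per cell cannot be told apart.

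**Figure D1:**
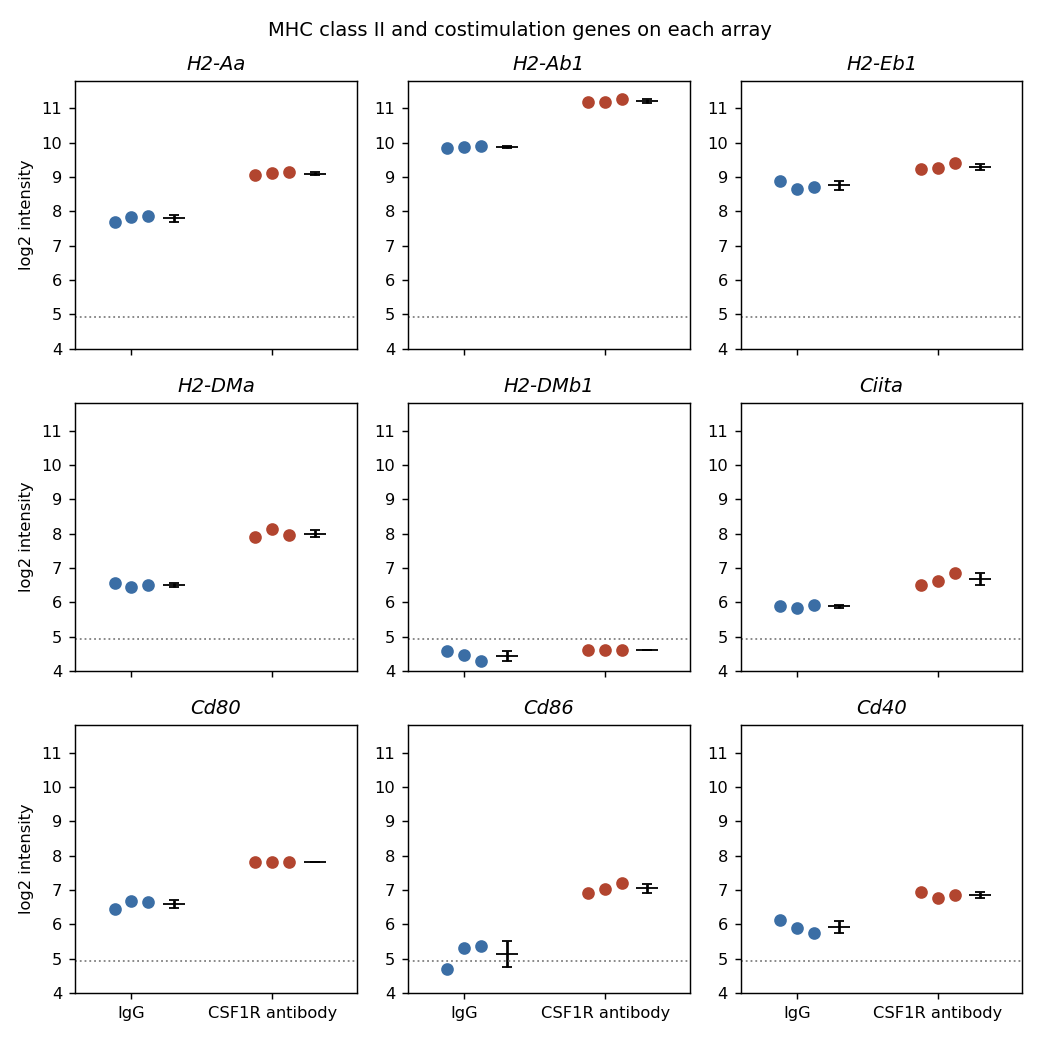
Log2 intensity of the 9 measured genes on each of the 6 arrays, with IgG in blue and CSF1R antibody in red. Black marks give the mean and SD of 3 arrays, and the dotted line is the background guide at 4.92. The antibody arrays lie above the IgG arrays in every panel, by only 0.05 for H2-DMb1, which lies below the guide in both groups.

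Among the chains that present peptide, H2-Ab1, the beta chain of the A molecule, read 9.84, 9.88 and 9.92 on the IgG arrays and 11.19, 11.18 and 11.29 on the antibody arrays, as log2 intensity. The lowest antibody array stood 1.26 above the highest IgG array. The rise in log2 intensity was 1.34, or 2.53-fold (SE 0.05; limma adjusted p = 1.3e-05).

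H2-Aa, the alpha chain that pairs with it, read 7.69, 7.85 and 7.88 with IgG and 9.05, 9.11 and 9.14 with the antibody. Here too the groups were far apart, with a gap of 1.16 against a spread of at most 0.19 within a group. H2-Aa rose by 1.29 (SE 0.07; 2.45-fold; adjusted p = 3e-05).

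H2-Eb1, the beta chain of the E molecule, moved less. It read 8.90, 8.66 and 8.71 with IgG and 9.23, 9.26 and 9.41 with the antibody. The gap between groups was 0.33, close to the IgG arrays' own range of 0.24, and the rise was 0.54 (SE 0.08; 1.46-fold; adjusted p = 0.003). H2-Ea, the gene of the E alpha chain, is listed as a transcribed pseudogene in RefSeq. It read 3.94 with the antibody and 3.80 with IgG, below the background guide. Whether these cells form an E molecule therefore cannot be read from these arrays. On each array the difference H2-Ab1 minus H2-Eb1 was taken, and it was 1.88 to 1.96 with the antibody and 0.94 to 1.22 with IgG. The shift of 0.80 had an exact two-sided permutation p of 0.10, the smallest that 3 against 3 arrays allow. H2-Aa minus H2-Eb1 shifted by 0.75 with the same exact p of 0.10. Adjusted over the 3 pairs of genes compared in this way, p was again 0.10. These pairs were chosen after the values were seen.

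The peptide editor had 1 chain with a clear rise and 1 that could not be read. H2-DMa read 6.56, 6.45 and 6.51 with IgG and 7.91, 8.12 and 7.96 with the antibody. At 1.49 (SE 0.07; 2.81-fold; adjusted p = 2.3e-05) its rise was the largest of the class II genes measured, 176th among all 22180 genes. H2-DMb1, its partner chain, read 4.57, 4.46 and 4.29 against 4.62 on each antibody array. All 6 values lay below the background guide of 4.92. H2-DMb1 was not called (difference 0.18, SE 0.08; adjusted p = 0.14), and at this signal the values do not show whether it changed. H2-DMb2, a near-identical neighbour of H2-DMb1, was called higher at 5.45 ± 0.22 against 4.68 ± 0.15 (SD, n = 3; difference 0.78; adjusted p = 0.0042). Probes of the 2 beta genes may share transcripts, so which of them gave this signal is uncertain.

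Ciita, the coactivator itself, read 5.88, 5.84 and 5.93 with IgG and 6.51, 6.63 and 6.86 with the antibody. The antibody arrays spread over 0.35 and the IgG arrays over 0.09, and the groups were 0.58 apart. Ciita rose by 0.79 (SE 0.09; 1.72-fold; adjusted p = 0.0011). Its start sites are several in the mouse, and these arrays give 1 value for the gene, so which start was used cannot be read.

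Of the costimulatory genes, Cd86 had the largest difference of the 9 genes and ranked 54th of all genes. It read 4.69, 5.32 and 5.36 with IgG and 6.91, 7.04 and 7.19 with the antibody. IgG replicate 1 stood apart from the other IgG arrays and below the background guide. The rise was 1.93 (SE 0.19; 3.80-fold; adjusted p = 0.00046) and 1.71 without that array (adjusted p = 0.00042). A level near the guide makes the fold less certain.

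Cd80, the other ligand of CD28, read 6.45, 6.67 and 6.64 with IgG and 7.80 on each antibody array. It rose by 1.21 (SE 0.07; 2.32-fold; adjusted p = 4.2e-05). The 3 antibody values are identical to the last digit, as were those of H2-DMb1. Exactly equal values on the antibody arrays occurred in 540 genes (2.43%) and on the IgG arrays in 324 (1.46%). The spread of these 2 genes therefore rests on the IgG arrays, and their SE may be too small. Cd86 minus Cd80 was −0.89 to −0.61 with the antibody and −1.76 to −1.28 with IgG, a shift of 0.72. The exact two-sided permutation p was 0.10, again the smallest possible, and this pair too was chosen after its values were seen.

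Cd40, the receptor through which T cells activate macrophages, read 6.11, 5.89 and 5.75 with IgG and 6.94, 6.77 and 6.85 with the antibody. The groups were 0.67 apart. Cd40 rose by 0.94 (SE 0.10; 1.91-fold; adjusted p = 0.00064).

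The class II genes lie close together on chromosome 17 among genes of class I processing. In RefSeq order from H2-Oa to H2-Ea there were 16 genes, of which 15 were measured, 6 were called higher and 0 lower (limma; 0 lower also at an unadjusted p under 0.05). Of all genes, 12.5% were called higher and 16% lower. H2-DMa, H2-Ab1, H2-Aa and H2-Eb1 were already counted among the 9 measured genes of the list. Of the neighbours outside the list, only H2-DMb2 and Tap1 were called. The 6 were H2-DMa, H2-DMb2, H2-Ab1, H2-Aa, H2-Eb1 and Tap1, a peptide transporter subunit for class I, which rose by 0.23 (SE 0.05; adjusted p = 0.0088). Between the DM genes and H2-Ab1, the proteasome genes Psmb9 (−0.02) and Psmb8 (−0.09) and the transporter gene Tap2 (0.02) were not called, with adjusted p of 0.89, 0.25 and 0.84. These neighbours were named after their values were seen. Cd80 and Cd86 lie on chromosome 16, as does Ciita, and Cd40 lies on chromosome 2.

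**Figure D2:**
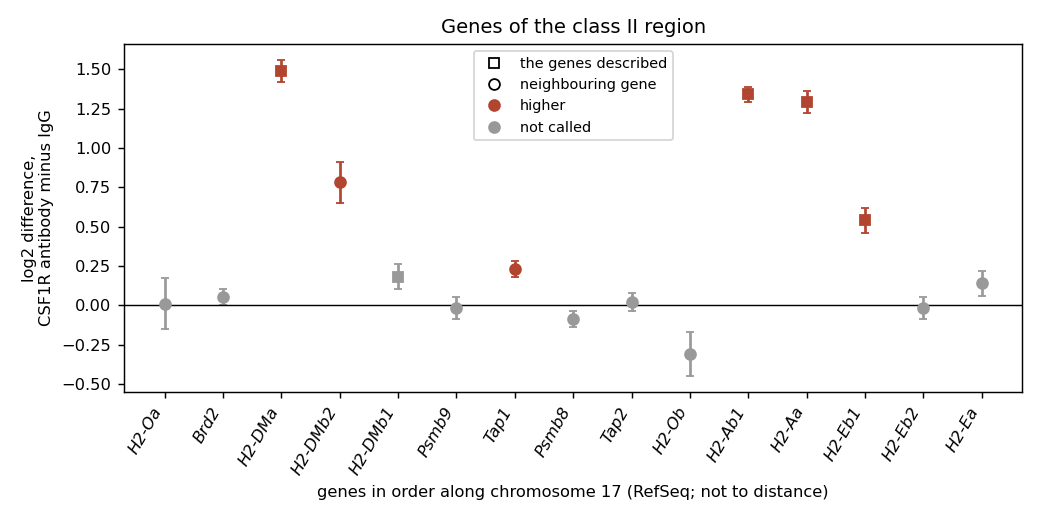
Log2 difference, CSF1R antibody minus IgG, with SE bars, for the 15 measured genes from H2-Oa to H2-Ea in chromosome order. Squares are genes of the list and circles are neighbours. H2-DMa, H2-Ab1 and H2-Aa stand above 1, while Psmb9, Psmb8 and Tap2 between them lie within 0.1 of 0.

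The remaining class II chains did not move as a group. Of 5 measured, 1 was called higher (H2-DMb2) and 0 lower, also at an unadjusted p under 0.05, with a median difference of 0.01. Of all genes, 12.5% were called higher and 16% lower. H2-Ob, a chain of the H2-O complex that restrains H2-DM, was at 6.44 ± 0.15 against 6.75 ± 0.25 (SD, n = 3; adjusted p = 0.15). Its partner H2-Oa was at 4.61 and 4.60, and H2-Ea (3.94 and 3.80) and H2-Eb2 (3.67 and 3.68), both named after their values were seen, were also below the background guide. No reading of change can be made for those 3.

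Genes that prepare class II molecules and control their turnover were mostly higher. Of 10 measured, 9 were called higher and 0 lower (1 lower at an unadjusted p under 0.05), with a median difference of 0.41. All 10 were above the guide, and of all genes above it 20.1% were called higher and 26% lower. The largest was Marchf1, a ubiquitin ligase that takes class II and CD86 off the cell surface, at 6.25, 6.18 and 6.25 with IgG and 7.14, 7.28 and 7.47 with the antibody (rise of 1.07, SE 0.09; adjusted p = 0.00022). Cst3, an inhibitor of cathepsins, rose by 0.61 and Sppl2a, the protease that clears the last fragment of the invariant chain, by 0.52. The endosomal proteases Lgmn (0.49) and Ctsl (0.47) followed. Ifi30, a reductase that opens disulfide bonds of antigens, was at 11.49 ± 0.05 against 11.62 ± 0.02 (SD, n = 3) and was not called (adjusted p = 0.094). It was lower with an intensity trend (adjusted p = 0.017) or with only the brighter 50% of genes tested (0.03).

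Of 16 upstream factors measured, 6 were called higher and 4 lower, with a median of 0.02. All 16 were above the guide, and the count of lower genes is near the share of all genes above it that were called lower (26%; 20.1% were called higher). Irf8, a macrophage transcription factor, rose by 1.73 (SE 0.05; adjusted p = 8.1e-06), from 7.72, 7.64 and 7.67 to 9.41 on each antibody array. Its second probe set rose less, by 0.53 (adjusted p = 0.024). The kinase gene Jak1 rose by 1.33, Irf1, the interferon-induced activator of Ciita, by 1.10, the receptor chain gene Ifngr1 by 1.06 and Spi1, which encodes PU.1, by 0.88, with adjusted p from 1.1e-05 to 0.00012.

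The 4 that were lower all encode parts of the X and Y box complexes and were named after their values were seen. Other parts of these complexes were not called: Nfya, and Rfxap (−0.10; adjusted p = 0.33), also named after its values were seen. Rfx5 was at 8.33 ± 0.03 against 8.60 ± 0.02 (SD, n = 3), a difference of −0.27 (adjusted p = 0.0039) that kept its call under all 17 settings, with adjusted p = 0.041 under cyclic loess. Rfxank (−0.21; adjusted p = 0.037), Nfyb (−0.25; 0.042) and Nfyc (−0.26; 0.033) were less firm. With cyclic loess they were −0.10, −0.15 and −0.15, with adjusted p of 0.25, 0.16 and 0.15. Centring the arrays on their medians also ended all 3 calls (adjusted p of 0.12, 0.10 and 0.089), as did testing every probe set (0.081, 0.086 and 0.071). The replicate block ended that of Nfyb (0.092). Leaving out antibody replicate 1 or 2, or IgG replicate 1 or 3, ended all 3 calls as well, and without IgG replicate 2 those of Rfxank and Nfyb were lost. Adjusted p was then 0.063 to 0.11 for Rfxank, 0.084 to 0.13 for Nfyb and 0.067 to 0.10 for Nfyc. Nfya (10.81 against 10.88; adjusted p = 0.38) and Creb1 (9.56 against 9.49; 0.43) were not called, though Creb1 was higher under cyclic loess (0.18; 0.038).

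Of 15 other surface ligands of T cells measured, 9 were called higher and 0 lower, also 0 lower at an unadjusted p under 0.05. Of all genes, 12.5% were called higher and 16% lower. The median of the 15 was 0.35, and 5 lay below the background guide. One of those 5, Tnfsf18, was called higher all the same (2.94 against 2.59; adjusted p = 0.019), and lost the call without any 1 of the antibody arrays or without IgG replicate 3 (0.057 to 0.07). Tnfsf14, which encodes the activating ligand LIGHT, rose by 1.80 from 4.98, 5.07 and 5.03 to 6.75, 6.77 and 6.96 (SE 0.07; adjusted p = 1.2e-05). Its receptor gene Tnfrsf14 rose by 1.12. Cd83, whose product keeps class II and CD86 on the surface, rose by 1.45. The inhibitory ligand genes Vsir (VISTA) and Cd274 (PD-L1) rose by 1.31 and 0.87. Icosl (7.38 against 7.25; adjusted p = 0.21) and Tnfsf9 (6.47 against 6.26; 0.17) were not called, but Icosl passed under cyclic loess (0.046) and Tnfsf9 without antibody replicate 2 (0.0086). Tnfsf4, Cd70, Pdcd1lg2 and Vtcn1, all below the guide, were not called either, with differences of −0.09, 0.21, 0.04 and −0.05.

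Of 10 signalling genes downstream of CD40 measured, 4 were called higher and 2 lower, with a median of −0.03. All 10 were above the guide, as were 13110 of all genes, of which 20.1% were called higher and 26% lower. The count of genes called lower is no greater than that share. At an unadjusted p under 0.05, 5 of the 10 were lower and 4 higher, against 4303 and 3051 of the 13110 genes above the guide. The adaptor gene Traf5 rose by 0.77, the ubiquitin ligase gene Birc3 by 0.44 and the NF-kB subunit gene Relb by 0.35. Map3k14, the kinase NIK, fell by 0.30 (adjusted p = 0.017) and Tank, an adaptor, fell by 0.27 (0.012). Both calls were lost with cyclic loess (0.089 and 0.066), and that of Map3k14 also with a replicate block (0.061), without antibody replicate 1 (0.054) and without IgG replicate 1 (0.061) or 3 (0.06). Traf6 (−0.15; adjusted p = 0.085) and Birc2 (−0.21; 0.058) were not called, but Traf6 was without IgG replicate 2 (0.04), with an intensity trend (0.035) and with only the brighter 50% of genes tested (0.027). Birc2 passed in 5 of its 17 settings, none of which left out an array.

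The T cell's side of these contacts gave 2 further rises among 5 genes, where 12.5% of all genes were called higher. Cd4, the coreceptor that binds class II, read 6.08, 6.19 and 6.45 with IgG and 8.28, 8.21 and 8.22 with the antibody, a rise of 2.00 (SE 0.10; 4.00-fold; adjusted p = 2.4e-05). Cd28, the receptor of CD80 and CD86, read 7.11, 7.12 and 7.16 with IgG and 8.83 on each antibody array, a rise of 1.70 (adjusted p = 8.1e-06). All 4 measured T cell markers, Cd3d and Cd3e among them, lay between 3.53 and 4.49 on the 6 arrays and so below the background guide on each. Icos and Ctla4 were below the guide in both groups, and of the 5 partner genes 0 were lower, also at an unadjusted p under 0.05.

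**Figure D3:**
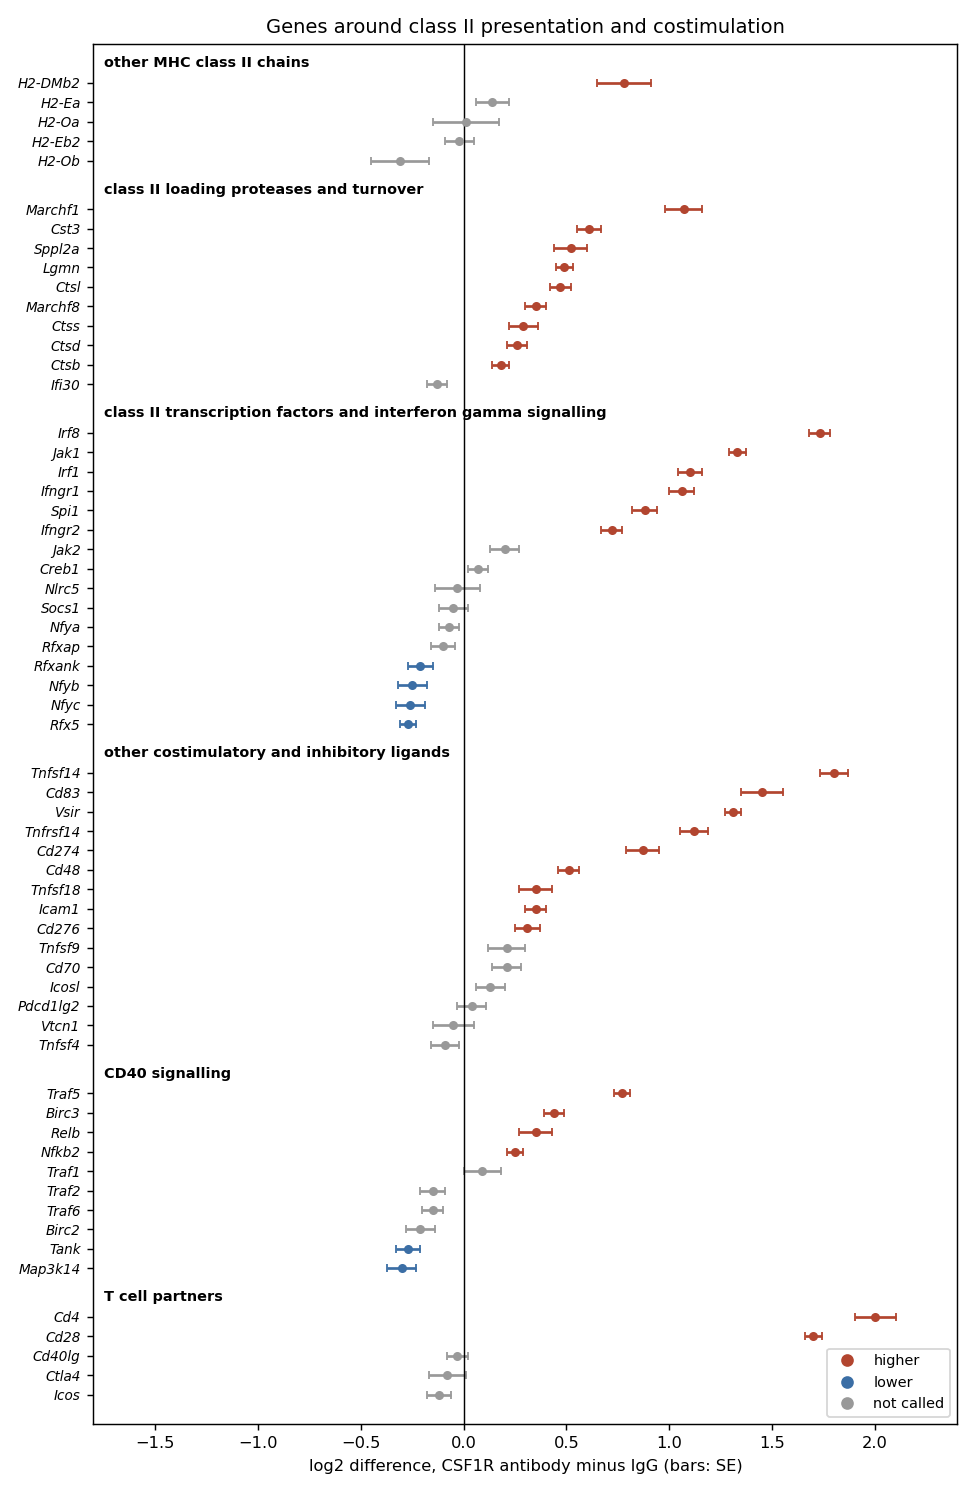
Log2 difference, CSF1R antibody minus IgG, with SE bars, for the 61 measured genes of 6 lists around the pathway. Red genes were called higher (31), blue lower (6) and grey not called (24). Nearly all genes of the loading list lie right of 0, while the transcription factor and CD40 lists lie on both sides.

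Over all 6 lists, 31 of 61 genes were called higher and 6 lower, against 12.5% and 16% of all genes, with a median of 0.21. Of the 61, 4 had identical values on the antibody arrays: Irf8, Vsir, Traf5 and Cd28.

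The labelled cell type was checked against markers, and these moved alongside the class II genes. All 8 macrophage markers were above the background guide and all 8 were called higher (median 1.18), among them Cd68 (0.33), Lyz2 (0.78) and Csf1r (1.12). Of all genes above the guide, 20.1% were called higher and 26% lower. Their summed linear intensity was 15300 to 16000 on the IgG arrays and 27000 to 27900 on the antibody arrays. Class II is also made by dendritic cells and B cells, the lineage of myeloma. Of 9 dendritic cell markers, 1 was higher and 1 lower (median −0.10), against 12.5% and 16% of all genes. Their sums overlapped, at 995 to 1010 with IgG and 904 to 1030 with the antibody. These sums are mostly 1 gene, since Cd209a made up 64.5% to 72.6% of them. Of the 9, 5 were above the guide in at least 1 group, while Flt3, Dpp4, Xcr1 and Siglech were below it in both. Itgax fell by 0.55 and Cd209a did not pass (9.42 against 9.36; adjusted p = 0.58). Batf3, a factor of cross-presenting dendritic cells, rose by 0.44 (5.04 against 4.60; adjusted p = 0.0081). Zbtb46 (4.69 against 4.96; 0.15) and Ccr7 (5.12 against 5.29; 0.34) were not called. Dendritic and B cell markers beyond the 2 brightest of each list were picked out after their values were seen. Of 8 B cell markers, 0 were higher (also at an unadjusted p under 0.05) and 2 lower. That count of lower markers is near the shares of all genes (16%) and of genes above the guide (26%) called lower. The B cell sums were 967 to 1010 with IgG and 750 to 799 with the antibody. Cd79b, at 9.24 with the antibody and 9.66 with IgG, made up 78.5% to 82.6% of these sums. It fell by 0.42 and Ebf1 fell by 0.46 (5.16 against 5.62; adjusted p = 0.0041), while Pax5 did not pass (5.38 against 5.55; 0.26). The other 5, Ms4a1, Cd79a, Cr2, Fcer2a and Blk, were below the guide in both groups.

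Plasma cell markers were present after the washes. Of 9, 8 were above the guide, 0 were higher (also at an unadjusted p under 0.05) and 6 lower, against 26% of all genes above the guide called lower. Their sums were 20200 to 20700 with IgG and 16000 to 17600 with the antibody. Xbp1 fell by 0.30 and Ighm was at 12.74 against 12.88 (adjusted p = 0.31), passing without antibody replicate 3 (−0.22; 0.036) and with the mean of its 7 probe sets (−0.21; 0.041). Another of these probe sets was called lower with each tested on its own (−0.43; 0.0039). Of 6 stromal markers, 1 was higher and 4 lower, with Acta2 down by 1.20 on the log2 scale and Col1a1 by 0.38. The higher one was Dcn (4.43 against 4.11, below the guide), named after its values were seen. Stromal sums were 1660 to 1720 with IgG and 863 to 929 with the antibody. Acta2 alone made up 61.3% to 75.1% of them. The part of these shifts in the differences of the class II and costimulation genes was not tested.

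**Figure D4:**
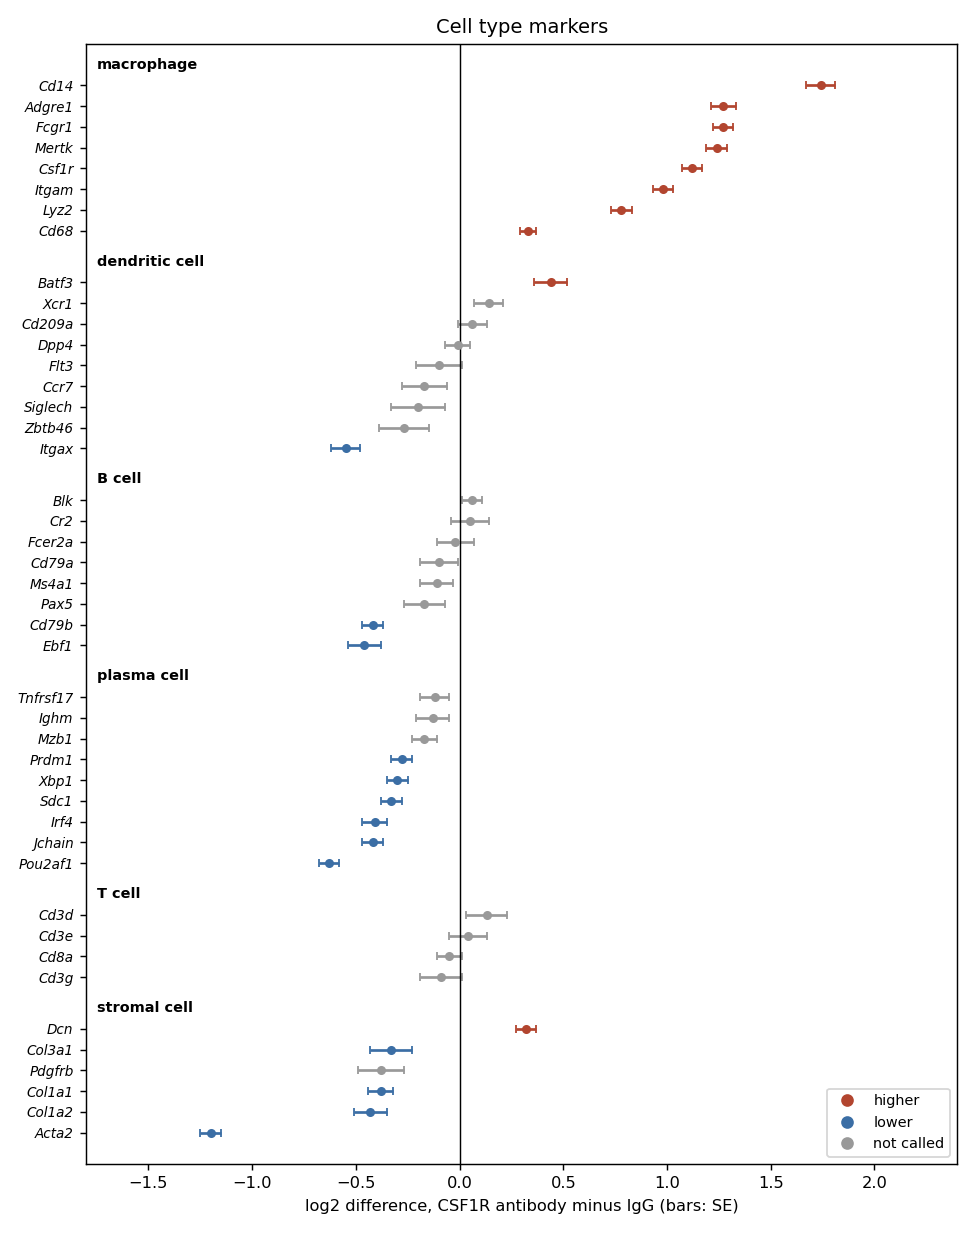
Log2 difference, CSF1R antibody minus IgG, with SE bars, for the measured markers of 6 cell types, coloured by call. All 8 macrophage markers lie right of 0, 6 of 9 plasma cell markers are called lower, and dendritic, B and T cell markers lie mostly near 0.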

How the data were processed

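The authors deposited 1 intensity per probe set, on a linear scale, for each of 6 arrays, 3 per group. The submitters' processing notes list RMA and limma without versions, and the genome build is not given in the sources used here. RMA as usually run equalises the distributions of arrays, which can hide a shift of most genes and understate folds. Values were taken as log2. Of 41345 probe sets, 23521 had 1 gene symbol, 1814 several and 16010 none, and only the first kind was used. All 9 measured genes have 1 such probe set, and for the 1082 genes with more the highest mean over 6 arrays was taken. Symbols come from the platform annotation and 0 differed from RefSeq by Entrez identifier.

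The 2 groups were tested in R 4.3.3 using lmFit and eBayes of limma 3.58.1, with Benjamini-Hochberg adjustment over 22180 genes at 0.05. The test was checked on simulated data, in 5 runs with 200 of 22180 genes changed. It found 53% of log2 shifts of 0.5 and 86% of shifts of 1. Of its calls, 4.57% were false. The noise was drawn as normal and few genes changed, whereas 28.5% were called here, so these rates may not carry over. Levels are means ± SD, and each SE is moderated by limma. Median log2 signal was 4.88 to 4.95 on the arrays, and correlations across probe sets were 0.992 to 0.993 within groups and 0.984 to 0.985 between them. The genes, lists, background guide and alternatives were chosen with earlier results of these data known. Named besides the 10 genes were, per pathway list, genes called among the 5 largest differences and up to 2 uncalled genes with the highest level, and 2 per marker list, plus Csf1r. Lists are described by counts and medians. Of 66 pathway symbols listed (some older spellings of one gene), 61 were measured. Figures used matplotlib 3.10.9 in Python 3.11.15.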

Additional observations from a re-analysis of the deposited data

How the results depend on the processing

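Over 17 alternatives, the count of class II and costimulation genes called higher stayed at 8 and the count called lower at 0, and each measured gene kept its direction and its side of the threshold. H2-DMb1 had 16 alternatives, since it fell out when only the brighter 50% of genes were tested. Ranges of the log2 difference were 1.23 to 1.40 for H2-Aa, 1.31 to 1.46 for H2-Ab1, 0.49 to 0.66 for H2-Eb1, 1.43 to 1.58 for H2-DMa, 0.11 to 0.24 for H2-DMb1, 0.69 to 0.86 for Ciita, 1.14 to 1.30 for Cd80, 1.71 to 2.05 for Cd86 and 0.85 to 1.03 for Cd40. Counts of lower genes moved more. Of the other pathway genes, 6 were lower, against 3 with arrays centred on their medians, 1 with cyclic loess, 10 with only genes above the 50th percentile of signal tested, 3 with every probe set as a feature, 1 at an adjusted p under 0.01 and 2 to 6 when 1 array was left out. Of all genes, 3548 were lower, against 2346 with cyclic loess, 2232 at an adjusted p under 0.01 and 2839 to 3425 when 1 array was left out. A stricter threshold calls fewer genes by construction, and for the other settings the cause was not tested. The median difference of all genes ran from −0.07 to 0.02 over all settings.

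With the replicate number as a block (replicate block), 8 of the class II and costimulation genes were higher, as were 2569 of all genes, with 2980 lower. Deviations from group means correlated at 0.03, −0.05 and 0.00 for arrays with the same number, so the numbers were not taken to pair the samples. Low signal, measured against the background guide, limits H2-DMb1 in both groups and Cd86 with IgG.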
